A study of Mus musculus with 7 samples.

Results

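H3K27ac marks active promoters and enhancers, and a set of 460 promoter peaks in which it was highest after 48 h of NeuroD1 is described here. The peaks were chosen by their own read counts. Each library's counts were put on a common scale by the library totals (scaled counts, which sum in each library to the mean total), and a peak was taken when the lower 48 h value was at least 1.3 times the highest value of the 4 libraries at 0 h and 12 h. It also had to overlap the 2 kb on either side of a protein-coding transcription start site (TSS) in GENCODE M21 on mm10 and to hold at least 20 reads on average. Of the 66841 merged peaks, 16421 overlapped such a window, 13362 of these had enough reads, and 460 met the ratio. These 460 peaks lay nearest to 429 genes, and 25 genes had more than 1 of them.

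The cells were A2Lox mouse embryonic stem cells, a line in which doxycycline switches on an introduced NeuroD1 gene, so the factor came from a transgene in stem cells that do not normally use it. They had been moved from feeder cells to gelatin before the experiments. Cells without doxycycline (0 h) were compared with cells after 12 h and 48 h of it at 500 ng per ml, and each time point had 2 replicate libraries, R1 and R2. Nothing in the labels says that R1 and R2 came from separate cultures, so p-values measure the spread between these libraries, which may be technical.

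NeuroD1 is a proneural factor of the basic helix-loop-helix (bHLH) class. Such factors bind E-boxes, short sites of the form CANNTG, as dimers with the widely expressed E proteins such as Tcf12 and Tcf4, and Id proteins block that pairing. Acetylation of H3K27 around a TSS accompanies transcription of the gene, but it was the mark and not the RNA that was measured here.

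The letters below show where 2 forms of E-box, CAGATG and CAGCTG, lie in 6 of the peaks. Of these, 4 are at known regulators of neuronal differentiation (Zbtb18, Neurod4, Dll3 and Insm1), with Cplx2 for the highest ratio of all and Itgbl1 for the early gain it showed. All 6 hold CAGATG and so do not stand for the set, in which 33.7% of peaks hold it and 54.6% hold at least 1 of the 2 forms. The Tcf12 peak, for example, holds neither. Each is the stretch of 200 bases, within 250 bases of the peak centre, that holds most sites of CAGATG or CAGCTG, read from mm10 (GRCm38.p6) and printed 5′ to 3′ on the plus strand. Capitals mark CAGATG, its reverse complement CATCTG, and CAGCTG, which reads the same on both strands. E-boxes of other forms are not marked.
Cplx2 (chr13:54371751-54371950, + strand): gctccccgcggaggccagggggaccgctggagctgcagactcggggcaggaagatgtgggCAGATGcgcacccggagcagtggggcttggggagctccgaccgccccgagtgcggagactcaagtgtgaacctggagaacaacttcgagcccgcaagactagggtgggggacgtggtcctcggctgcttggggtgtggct
Zbtb18 (chr1:177445818-177446017, + strand): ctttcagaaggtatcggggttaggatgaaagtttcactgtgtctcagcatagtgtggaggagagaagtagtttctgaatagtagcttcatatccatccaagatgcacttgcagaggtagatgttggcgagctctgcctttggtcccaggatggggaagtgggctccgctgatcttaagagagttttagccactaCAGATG
Neurod4 (chr10:130282094-130282293, + strand): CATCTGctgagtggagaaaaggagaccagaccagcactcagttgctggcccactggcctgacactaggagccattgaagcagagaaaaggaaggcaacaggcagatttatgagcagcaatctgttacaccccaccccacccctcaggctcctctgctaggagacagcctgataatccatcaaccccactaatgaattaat
Dll3 (chr7:28302273-28302472, + strand): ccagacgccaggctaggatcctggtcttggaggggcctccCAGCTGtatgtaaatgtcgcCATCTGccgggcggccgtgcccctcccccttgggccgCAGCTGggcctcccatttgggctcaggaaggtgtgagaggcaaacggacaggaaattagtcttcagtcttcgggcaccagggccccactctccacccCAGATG
Insm1 (chr2:146223081-146223280, + strand): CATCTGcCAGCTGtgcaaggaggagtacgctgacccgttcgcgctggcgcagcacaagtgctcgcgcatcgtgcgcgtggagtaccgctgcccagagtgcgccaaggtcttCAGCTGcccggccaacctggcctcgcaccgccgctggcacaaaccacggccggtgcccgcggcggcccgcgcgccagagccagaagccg
Itgbl1 (chr14:123660193-123660392, + strand): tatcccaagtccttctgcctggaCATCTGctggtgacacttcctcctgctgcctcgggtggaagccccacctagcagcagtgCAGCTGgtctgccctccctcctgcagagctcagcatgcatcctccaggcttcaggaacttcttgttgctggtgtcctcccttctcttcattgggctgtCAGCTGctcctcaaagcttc
In these stretches Dll3 held 2 CAGATG and 2 CAGCTG sites and Insm1 held 1 and 2, whereas Cplx2, Zbtb18 and Neurod4 held 1 CAGATG site each.

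Before these peaks are described, a difference between the libraries has to be stated. At 48 h, R1 was higher than R2 in 9977 of the 13362 promoter peaks with enough reads (74.7%), and the median ratio of R1 to R2 was 1.19. At 0 h and at 12 h that ratio was 0.991 and 1.02. In the 460 peaks R1 was the higher in 372 (80.9%), with a median ratio of 1.23. As the rule takes the lower value, R2 set the ratio in most of them. With R2 alone at 48 h the rule found 633 peaks, and with R1 alone it found 2619, both of which included the 460. Promoter counts of 10 stem cell markers, such as Pou5f1 and Nanog, summed to 24487 and 24973 at 0 h, 27507 and 27571 at 12 h, then to 16337 in R1 and 20996 in R2 at 48 h, while 8 of 10 neuron markers with a promoter peak summed to 1009 and 963, 758 and 736, and 1428 and 1016. By these sums R1 at 48 h had less H3K27ac at stem cell promoters and more at neuronal ones than R2. The excess was not particular to neurons. R1 was also higher at promoters as a whole and for fibroblast markers (below) and endocrine markers (4 of 12 with a promoter peak, 432 and 253). Glial (151 and 169) and muscle sums (12.2 and 13.8) were lower in R1. Of the stem cell markers, Sox2 (2131 and 1991) and Klf4 (228 and 175) were higher in R1, and the others lower. The part of this difference in the results below was not tested. All 10 stem cell markers had a promoter peak. Fibroblast markers, which would tell of feeder cells left over, had a promoter peak for 4 of 10 genes, and their sum was 177 and 162 at 0 h, 118 and 114 at 12 h, then 309 and 156 at 48 h. The collagen genes Col1a2 and Col3a1 among them had no promoter peak at all, nor had the muscle genes Myod1 and Myog or the glial genes Gfap and Sox10.

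The 460 peaks started low. In chromatin from a whole culture, more cells with the mark and more of it per cell cannot be told apart. Their median scaled count was 54.4 and 45.1 at 0 h, 50.4 and 49.2 at 12 h, then 131 and 101 at 48 h, against 165 and 166, 124 and 121, and 192 and 156 for all promoter peaks with enough reads. So the promoters that ended highest at 48 h were still below the typical promoter at that time. In the ratio that chose them they ranged from 1.3 to 6.42, with a median of 1.47. It was under 1.5 in 252 peaks, at least 2 in 57 and at least 3 in 9.

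**Figure D1:**
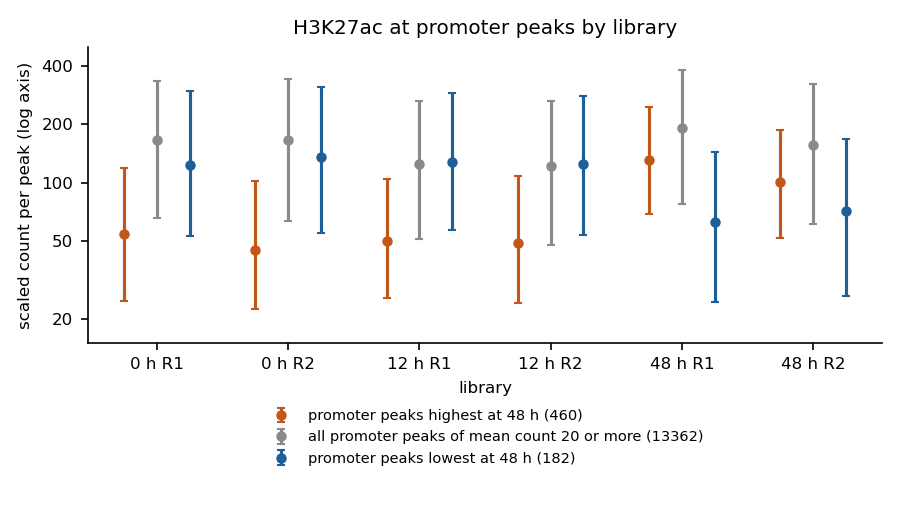
Scaled H3K27ac count (log axis) in each of the 6 libraries for the 460 promoter peaks highest at 48 h, for all 13362 promoter peaks with a mean of at least 20 reads, and for 182 promoter peaks lowest at 48 h. Points are medians and bars run from the 25th to the 75th percentile of peaks. The 460 peaks were near 50 at 0 h and 12 h and at 131 and 101 at 48 h, where R1 lay above R2.

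By the test, 348 of the 460 peaks had gained H3K27ac at 48 h relative to 0 h and 410 relative to 12 h (quasi-likelihood test of edgeR, p adjusted over all 66841 peaks by Benjamini-Hochberg, adjusted p under 0.05), where 8.56% and 10.7% of all merged peaks did, and 4.87% and 32.3% of promoter peaks with enough reads. These contrasts were used to choose the peaks, so the counts describe the set and test nothing. Without 0 h R1 or R2 the 348 fell to 209 or 117, and without 12 h R1 or R2 the 410 fell to 151 or 116. Peaks on both sides of the threshold were much alike. Just inside it lay Hmgn5, with scaled counts of 59.5 and 30.8 at 0 h, 34.3 and 58.0 at 12 h, then 83.3 and 77.4 at 48 h. The next were Syt14 and Pea15a. Just outside it lay Greb1l, Galk2 and Plcd1, and Galk2 had 28.7 and 22.3 at 0 h, 31.1 and 16.6 at 12 h, then 53.3 and 40.4 at 48 h.

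The highest ratio, 6.42, belonged to Cplx2, which encodes complexin 2, a protein that controls the fusion of synaptic vesicles. Its peak (chr13:54370869-54372833) covers a TSS and is centred in an intron. The scaled counts were 19.5 and 12.7 at 0 h, 17.2 and 20.2 at 12 h, then 268 and 130 at 48 h. The peak reached the mean of 20 reads only through its 48 h libraries. All 4 earlier libraries lay close together, and the 2 libraries at 48 h stood far above them while differing from each other by more than all the earlier libraries did. The fitted change from 0 h to 48 h was 3.60 ± 0.35 (log2, SE), and that from 0 h to 12 h was 0.22 ± 0.45 (adjusted p = 0.769).

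Abcd2, a peroxisomal transporter of very-long-chain fatty acids, came next with 2 adjoining peaks. The one over the TSS (chr15:91191067-91192866) had 29.8 and 25.5 at 0 h, 34.3 and 44.2 at 12 h, then 217 and 176 at 48 h. The one further into the gene rose from a handful of reads (8 and 1 at 0 h, 9 and 12 at 12 h) to 80 and 76 at 48 h. St8sia3 (a sialyltransferase), Eml1 (a microtubule-binding protein needed for the placement of cortical progenitors), Psd3, Eif4e3, Tex26, Mx2 and Hdac9 were also among the 12 highest ratios. Between them they ran from 2.80 for Hdac9 to 3.63 for St8sia3. Like the inner Abcd2 peak, those of Eml1, Psd3 and Eif4e3 reached the mean of 20 reads only through their 48 h libraries. Mx2, an interferon-induced antiviral GTPase, had 27.7 and 23.4 at 0 h, 25.7 and 18.4 at 12 h, then 118 and 80.8 at 48 h, so that it too was level until 12 h.

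Zbtb18, a zinc finger repressor that acts in cortical neurogenesis, had 3 peaks in the set, all around its TSS. The first of them (chr1:177445557-177446228) had raw counts of 4 and 0 at 0 h, 12 and 19 at 12 h, then 60 and 68 at 48 h. The second, adjoining it, had 6 and 3, 28 and 17, and 59 and 110. In both, every 12 h library was above both 0 h libraries and below both 48 h libraries, and the gain at 12 h passed the test (by 2.80 ± 0.67 on the log2 scale with an adjusted p of 0.00625 in the first, and by 2.23 ± 0.52 with 0.0053 in the second). The third, upstream of the TSS, had more reads at 0 h, with scaled counts of 65.7 and 44.6, then 93.3 and 86.5 at 12 h, then 313 and 201 at 48 h.

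Neurod4 and Nhlh1 are bHLH factors like NeuroD1 that act during neuronal differentiation. The Neurod4 peak (chr10:130281264-130283157) is centred 1970 bases upstream of the TSS, and its scaled counts were 30.8 and 18 at 0 h, 47.2 and 55.2 at 12 h, then 150 and 187 at 48 h. The Nhlh1 peak, centred 956 bases upstream, had 18.5 and 12.7, 36.5 and 48.8, and 119 and 68.8. In both peaks the 12 h libraries lay above the 0 h libraries, while 48 h was highest by the rule. By 12 h Neurod4 had gained 1.06 ± 0.32 on the log2 scale (adjusted p = 0.0246) and Nhlh1 1.45 ± 0.38 (adjusted p = 0.0109). Of the 12 proneural and neuronal bHLH genes on the list, 5 had a promoter peak with enough reads, and these were the 2 in the set. Of all 12183 genes with such a peak, 3.75% had one in the set.

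**Figure D2:**
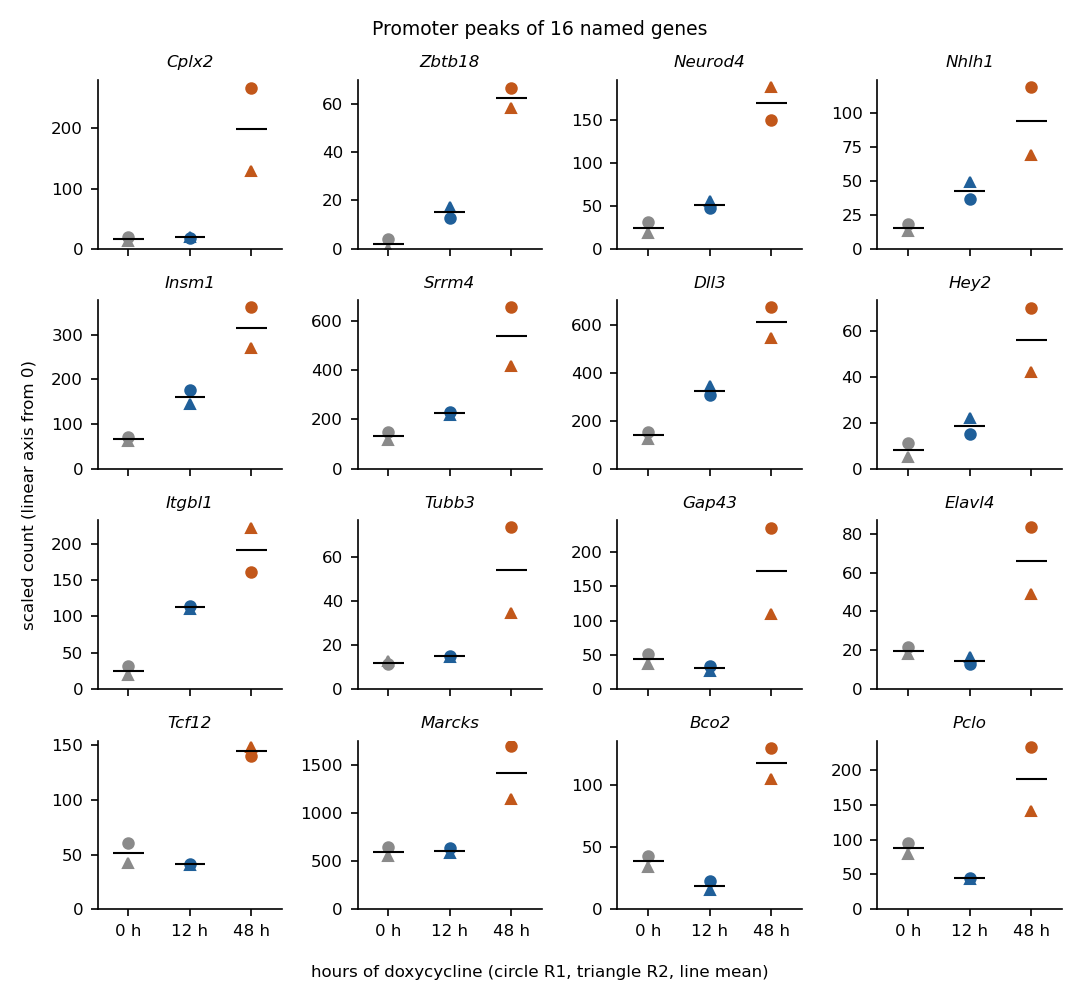
Scaled H3K27ac counts (linear axes from 0) at the promoter peaks of 16 named genes at 0 h, 12 h and 48 h of doxycycline. Circles are R1, triangles R2 and lines the mean of the 2. For a gene with several peaks in the set, the one with the highest ratio is drawn. Cplx2 and Marcks stayed level until 12 h, Dll3 and Itgbl1 had risen by then, and Bco2 and Pclo were lowest at 12 h.

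Of the 7 genes of E proteins and of the Id proteins that block their pairing, 3 had a peak in the set, next to 3.75% of all genes. Tcf12 had scaled counts of 60.5 and 42.5 at 0 h, 41.8 and 40.5 at 12 h, then 140 and 149 at 48 h. Tcf4 had 55.4 and 79.6, 50.4 and 46.9, and 171 and 119. The inhibitor Id4 had 31.8 and 27.6, 23.6 and 21.2, and 54.4 and 57.6. In all 3 peaks the 12 h libraries lay below the 0 h libraries, though none of these differences passed the test. The Id4 peak in the set lies upstream of the TSS. The peak over that TSS was not in the set and had no such dip, with 52.3 and 67.9 at 0 h, 90.1 and 56.1 at 12 h, then 154 and 77.4 at 48 h. The set thus held 2 E-protein genes and the gene of an inhibitor of E proteins.

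Of the neuronal transcription factor list, 8 of 32 genes with a promoter peak had a peak in the set, where 3.75% of all 12183 such genes did (457 genes). They were Ebf2, Insm1, Isl1, Onecut2, Pou3f2, Sox11, Zeb2 and the splicing regulator Srrm4, which that list also holds. Insm1, a zinc finger repressor of neuronal and endocrine precursors, had 71.8 and 61.6 at 0 h, 177 and 144 at 12 h, then 362 and 269 at 48 h, in a peak centred in its coding exon (chr2:146221984-146224430). Its 12 h gain was 1.26 ± 0.24 on the log2 scale (adjusted p = 0.000703). Srrm4, which promotes the inclusion of neuronal microexons, had 150 and 117, 229 and 219, and 655 and 417, with a 12 h gain of 0.75 ± 0.22 (adjusted p = 0.0223). Zeb2, a repressor of epithelial genes that is also needed in cortical neurons, had 3 peaks in the set, and none of them had changed at 12 h by the test. Its strongest had 415 and 321 at 0 h, 398 and 386 at 12 h, then 774 and 569 at 48 h. In the others R1 was more than 2 times R2 at 48 h, with 863 and 339 in one and 172 and 76.5 in the next. In Pou3f2, a POU factor of upper-layer neurons, R1 had 113 and R2 had 30.1 at 48 h, next to 13.8 to 21.4 at 12 h.

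In the Notch pathway 4 of 23 genes had a peak in the set. Dll3, a divergent Delta-like ligand that dampens Notch signalling in the cell that makes it, had 155 and 125 at 0 h, 308 and 344 at 12 h, then 674 and 545 at 48 h, in a peak over its TSS (chr7:28300142-28304387). Both 12 h libraries lay above both 0 h libraries, and the 12 h log2 fold change was 1.22 ± 0.19 (adjusted p = 0.000115). Hey2, a repressor downstream of Notch, had 2 peaks upstream of its TSS, of which the nearer one had raw counts of 7 and 5, 20 and 18, and 53 and 37 and gained at 12 h (1.57 ± 0.50, adjusted p = 0.0353). Both Hey2 peaks reached the mean of 20 reads only through their 48 h libraries. Maml3, a Notch coactivator, and the receptor gene Notch1 were lower at 12 h than at 0 h in both libraries, but these differences did not pass the test. Notch1 had 344 and 318 at 0 h, 276 and 291 at 12 h, then 588 and 449 at 48 h.

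Of the neuronal cytoskeleton list, 7 of 27 genes had a peak in the set, and none of their 9 peaks in the set had gained at 12 h. Tubb3, the neuron-specific beta-tubulin, had 3 peaks in the set, and the one over its TSS (chr8:123410439-123412601) had 107 and 109 at 0 h, 103 and 108 at 12 h, then 302 and 214 at 48 h. Gap43, a protein of growth cones, had 51.3 and 37.1, 34.3 and 26.7, and 235 and 109. The first 4 libraries of Tubb3 lay within a few counts of each other, and those of Gap43 were lower at 12 h without passing the test (log2 fold change -0.54, adjusted p = 0.311). Dpysl3, Dpysl4, Kif5c, Map1b and Tuba1a were the others, with ratios from 1.32 for Dpysl4 to 1.84 for Tuba1a.

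RNA-binding proteins of neurons gave 8 of 22 genes. Elavl4 (HuD), which stabilises neuronal mRNAs, had 21.6 and 18 at 0 h, 12.9 and 16.6 at 12 h, then 83.3 and 49.0 at 48 h. Its peak, which had no call at 12 h, reached the mean of 20 reads only through its 48 h libraries. Elavl2, Khdrbs3, Mex3b, Rbfox2 and Lin28b had no call at 12 h either, whereas Srrm4 and Nova2 had gained. Nova2, a splicing factor of neurons, had 14.4 and 7.4 at 0 h, 33.2 and 33.1 at 12 h, then 71.1 and 45.6 at 48 h (12 h log2 fold change 1.59 ± 0.41, adjusted p = 0.0098).

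**Figure D3:**
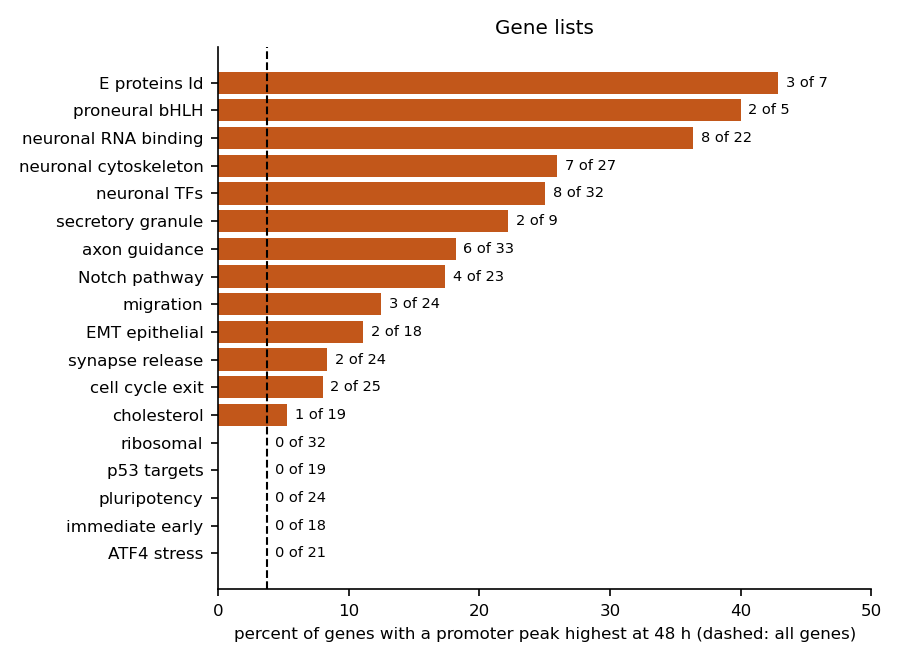
Share of the genes of each list that had a promoter peak highest at 48 h, among the list's genes with a promoter peak of at least 20 reads on average, for lists with at least 5 such genes. Numbers beside the bars are the genes counted, bars start at 0 and the dashed line is the 3.75% of all genes. Every list drawn with a gene in the set lies to the right of the line. These are the neuronal lists but also the cell-cycle, cholesterol, and epithelial and mesenchymal lists. The 5 other lists drawn, pluripotency among them, have no gene in the set. Lists of cell type markers are not drawn.

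For axon guidance the count was 6 of 33 genes, for migration 3 of 24, for secretory granules 2 of 9 and for synaptic release 2 of 24. Unc5c, a netrin receptor, had 13.3 and 12.7 at 0 h, 9.6 and 12.0 at 12 h, then 48.9 and 24.9 at 48 h. It reached the mean of 20 reads only through its 48 h libraries. Marcks, a substrate of protein kinase C that binds actin at the membrane, was the strongest peak of these lists, with 644 and 556, 634 and 588, and 1693 and 1142 (chr10:37135620-37142064). Pcsk2, a convertase of prohormones, had 42.1 and 38.2, 51.5 and 42.3, and 102 and 85.1. Over the synaptic release list as a whole the median 48 h log2 fold change was 0.16, against 0.06 for all promoter peaks with enough reads.

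Other lists gave few peaks in number or none, next to the 3.75% of all genes that had one. The antiproliferative gene Btg2 and Mycl were 2 of 25 genes on the cell-cycle list, Cdh2 and Zeb2 2 of 18 on the epithelial and mesenchymal list, Stard4 1 of 19 on the cholesterol list, and Isl1 1 of 3 among endocrine markers. Mycl, with 585 and 444 at 0 h, 588 and 557 at 12 h, then 1313 and 1004 at 48 h, was among the 5 strongest peaks of the set, along with Marcks, Mllt10, Prtg and Shroom3. None of 24 pluripotency genes, 32 ribosomal protein genes, 19 p53 targets, 21 ATF4 targets and 18 immediate early genes had a peak in the set. At the share of all genes, an absence from lists this short says little. By the mirror-image rule (each of the 4 values at 0 h and 12 h at least 1.3 times the higher 48 h value), which found 182 promoter peaks lowest at 48 h, 6 of the 24 pluripotency genes were counted, 2 of the 32 neuronal transcription factor genes and 2 of the 21 ATF4 targets, next to 173 of all 12183 genes. The other lists drawn in the plot of list shares had 1 gene or none.

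At 12 h relative to 0 h, a contrast in which the rule favours neither side, 38 of the 460 peaks had gained H3K27ac and 4 had lost it, and 418 passed no test. Over all merged peaks 9.93% gained and 6.03% lost. Over promoter peaks with enough reads the shares were 2.47% and 20.6%, against 8.26% and 0.870% of the 460. The median log2 fold change was -0.04 in the 460 peaks (25th to 75th percentile -0.26 to 0.27) and -0.39 in promoter peaks with enough reads, and so while most promoters were lower at 12 h these were about level. This is not particular to them, as the 182 peaks lowest at 48 h had a median of -0.04 as well. The rule also sets an upper bound on the 0 h and 12 h values, which narrows the change it leaves room for. An offset for the GC content of peaks moved the medians to 0.08 and -0.23. Leaving out 1 of the 0 h or 12 h libraries lowered the gained peaks to between 6 (without 0 h R2) and 21 (without 0 h R1), and left no lost peak.

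**Figure D4:**
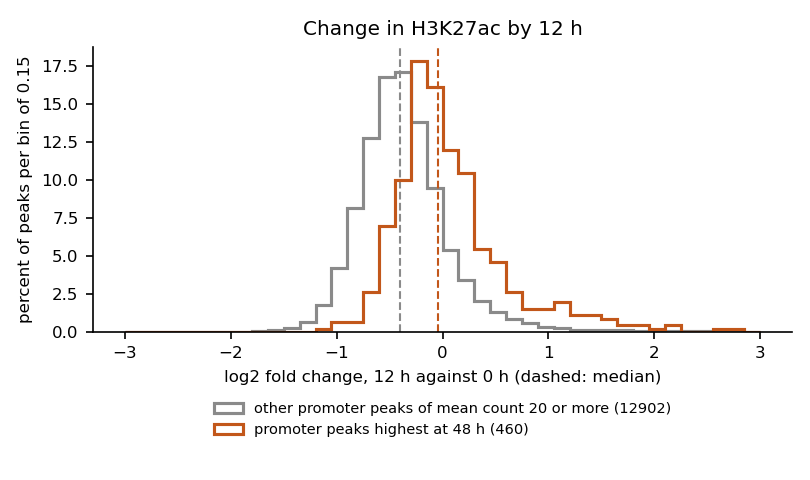
Distribution of the log2 fold change in H3K27ac at 12 h against 0 h for the 460 promoter peaks highest at 48 h and for the other 12902 promoter peaks with at least 20 reads on average, as the percent of peaks in each bin. Dashed lines are the medians. The 460 peaks are centred at -0.04 and have a longer tail to the right.

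The 5 largest gains at 12 h were those of the 2 peaks at Zbtb18 and of Cd300ld3, Itgbl1 and Onecut2. Itgbl1, an integrin-like secreted protein, had the best supported gain, with 31.8 and 19.1 at 0 h, 115 and 110 at 12 h, then 161 and 222 at 48 h (chr14:123659215-123661372, log2 fold change 2.13 ± 0.29, adjusted p = 1.91e-05). Cd300ld3, a gene of a myeloid receptor family, had raw counts of 8 and 1, 29 and 33, and 69 and 77 (2.68 ± 0.50, adjusted p = 0.000729), and Onecut2, a homeodomain factor, had 7 and 2, 19 and 20, and 54 and 31 (2.01 ± 0.58, adjusted p = 0.02). Like the 2 peaks at Zbtb18, those of Cd300ld3 and Onecut2 reached the mean of 20 reads only through their 48 h libraries. Among the gains named here, those of Itgbl1 and Dll3 passed the test under every alternative, and each of the others lost the call without 0 h R2. All 38 are by the rule lower at 12 h than at 48 h, so a peak that had reached its full level by 12 h could not be among them.

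The 4 peaks that had lost H3K27ac at 12 h went down before they went up. Bco2, a mitochondrial enzyme that cleaves carotenoids, had 43.1 and 34.0 at 0 h, 22.5 and 15.6 at 12 h, then 130 and 105 at 48 h (12 h log2 fold change -1.02 ± 0.34, adjusted p = 0.0408). Its peak also overlapped the TSS window of Il18. Pclo, the presynaptic scaffold Piccolo, had 95.4 and 79.6, 45.0 and 44.2, and 232 and 140 (-0.97 ± 0.28, adjusted p = 0.0215). For Cfap298 the change was -1.10 ± 0.37 (adjusted p = 0.044) and for Pphln1, whose peak also overlapped the window of Zcrb1, -0.60 ± 0.21 (adjusted p = 0.0498). With DESeq2 none of the 4 was called.

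E-boxes were counted in the 501 bases around each peak centre, on both strands. CAGATG was in 155 of the 460 peaks (33.7%) and in 20.6% of promoter peaks with enough reads, and CAGCTG was in 31.5% and 24.3%. At least 1 of these was in 54.6% and 39.8%. CACCTG (25.9% and 34.0%) and CACGTG (5.00% and 10.9%) went the other way, as did the GC-box GGGCGG (44.6% and 60.6%). Among the 182 promoter peaks lowest at 48 h, CAGATG was in 25.8%, CAGCTG in 29.1% and at least 1 of these in 45.1%. The higher shares of these sites were thus not wholly particular to the 460 peaks. Since motif counts move with base composition, the shares were also taken within ranges of GC content. For peaks of under 50% GC, CAGATG was in 36.6% of the 460 and 25.4% of promoter peaks, from 50% to 60% GC in 35.6% and 21.5%, and above that in 22.5% and 14.4%. CAGCTG differed below 60% GC (33.5% and 20.1%, then 31.5% and 25.1%) and was alike above it (27.5% and 26.5%).

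CAGATG was more frequent in the peaks that had gained by 12 h. It was in 25 of these 38 peaks (65.8%) and in 130 of the other 422 (30.8%), next to 114 of 292 promoter peaks (39.0%) that had gained at 12 h but were not in the set, and 19.7% of promoter peaks that were neither. Of the 6 stretches printed above, the 5 other than that of Cplx2 are from peaks that had gained by 12 h. In the RefSeq promoters of 300 bases (250 before to 50 after a gene start, GRCm38.p6) that overlapped one of the 460 peaks, 338 in number, CAGATG was in 14.8%, against 10.2% of the 12108 that overlapped a promoter peak with enough reads and 17.2% of all 32851 RefSeq promoters. A match of letters is not a bound site, and NeuroD1 binding was not analysed here.

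In position and composition the 460 peaks differed from promoter peaks as a whole in small ways. Their median width was 1280 bp against 1599 bp, their median GC content 52.2% against 54.6%, and their CpG observed over expected 0.512 against 0.602. A TSS lay inside 66.7% of them and inside 79.4% of promoter peaks, and the median distance from the centre to the nearest TSS was 385 and 290 bp. The centre was in an intron in 45.2%, in an untranslated exon in 21.1%, in a coding exon in 8.91% and outside of protein-coding transcripts in 24.8%, against 41.5%, 21.5%, 11.8% and 25.2%. Windows shared by 2 or more genes, as at head-to-head promoters, were fewer (7.39% against 12.1%). Wider and stronger peaks have a smaller counting error, and 160 of the 460 had under 50 reads on average.

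Many of the genes had a further promoter peak that was not in the set. Of the 457 genes whose window held one of the 460 peaks, 201 had more than 1 promoter peak with enough reads, and 210 of these peaks were not in the set. Both 48 h values were above all earlier values in 79 of the 210 (37.6%), against 18.6% of all 12902 promoter peaks outside of the set. Tcf12 is an example: its peak in the set (chr9:71896966-71899097) is centred 1635 bases upstream of a TSS that lies inside the longer transcripts, whereas the peak over the other TSS had 192 and 197 at 0 h, 148 and 153 at 12 h, then 366 and 233 at 48 h, which gave a ratio of 1.18.

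The difference was clearer at other genes. Srrm4 had a second promoter peak, at a TSS further into the gene, with 81.1 and 75.4 at 0 h, 59.0 and 38.6 at 12 h, then 45.5 and 47.3 at 48 h, and it was lower at 48 h than at 0 h in both libraries, unlike the first. Elavl4 had its weaker peak in the set, and the stronger had 166 and 150, 113 and 113, and 207 and 155. At Rbfox2 the peak in the set had 175 and 137, 183 and 186, and 288 and 320, and the stronger one had 500 and 568, 413 and 385, and 782 and 520, where R2 at 48 h lay between the 0 h libraries. At Tspan5, a tetraspanin, the peak in the set was weak (18.5 and 15.9, 22.5 and 23.0, then 50.0 and 55.0), and 3 of its other promoter peaks had gained by 12 h already, with ratios between 1.08 and 1.26.

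**Figure D5:**
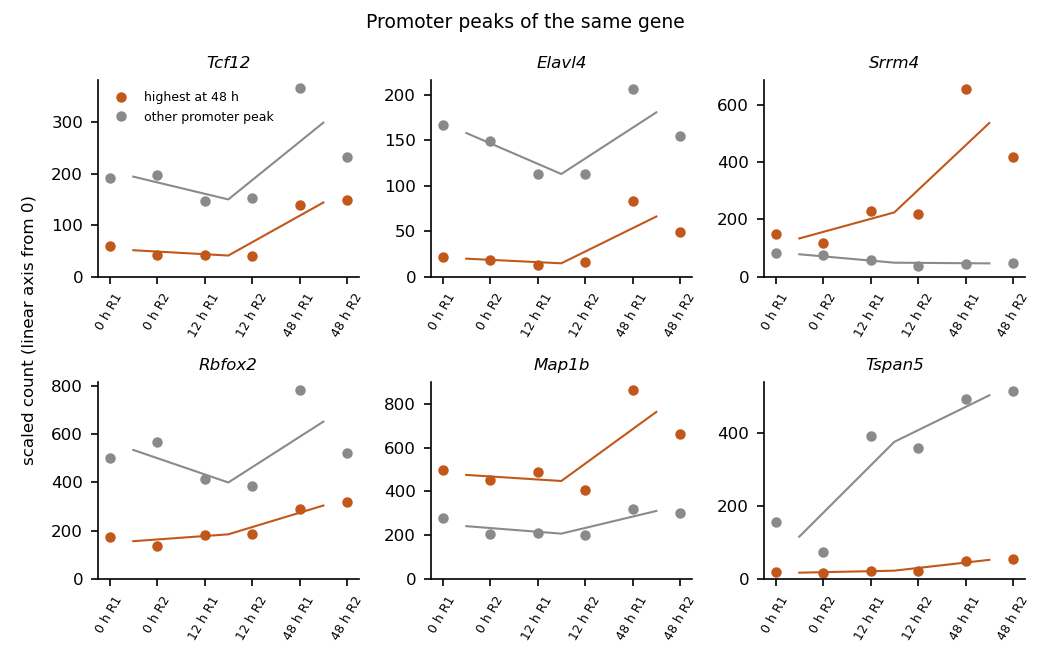
Scaled H3K27ac counts (linear axes from 0) in the 6 libraries at the promoter peak in the set and at the strongest other promoter peak of the same gene, for Tcf12, Elavl4, Srrm4, Rbfox2, Map1b and Tspan5. Points are libraries and lines join the means of the time points. At Srrm4 the other peak had 81.1 (R1) and 75.4 (R2) at 0 h and 45.5 and 47.3 at 48 h, and at Tspan5 it had gained by 12 h.

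Away from promoters, 255 of the 429 nearest genes had further peaks with enough reads in the gene or within 10 kb of it, and in 81 of these (31.8%) at least 1 met the ratio of 1.3 as well. Of these 888 peaks, 17.1% met it, and 37.5% had gained at 48 h relative to 0 h, against 5.63% and 12.0% of the 14281 such peaks of all genes with a promoter peak that had enough reads. Their median 48 h log2 fold change was 0.52, against -0.09. These peaks were not used by the rule, but they share their libraries and their genes with the peaks that were, so that the shares are given as a description.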

How the data were processed

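H3K27ac ChIP-seq of A2Lox cells was analysed for 0 h, 12 h and 48 h with 2 libraries each, grouped by their sample labels. The authors aligned reads to mm10 with Bowtie2, handled them with SAMtools (version 0.1.19 in the submitters' processing notes), called peaks with MACS2 against Input and merged them. The raw read counts per merged peak, made with QuasR, were deposited unscaled, and totals ranged from 6283103 to 8112895 reads per library. Input, NeuroD1 binding and RNA were not used here. Time points were tested with edgeR 4.0.16 in R 4.3.3 (quasi-likelihood, 1 model of 6 libraries, library totals as offset, all 66841 peaks, Benjamini-Hochberg). Alternatives included DESeq2 1.42.0, TMM, a count filter, a replicate block, a GC offset (lowess span 0.3) and leaving out each library. The tests were tried on simulated counts. Motifs and GC content were read from GRCm38.p6 with pysam 0.24.0 for the 66783 peaks with sequence around the centre, and pandas 2.3.3, numpy 2.4.6 and matplotlib 3.10.9 were used.

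Named genes were the 12 members with the highest ratio, up to 3 per gene list, the 5 largest called gains and losses at 12 h, the 5 strongest, and 3 on either side of the ratio threshold. Genes named beyond these (other list members, Zbp1 and the interferon list) were picked after their values were seen. Some items chosen by these rules are not reported here. Members, lists and tests were chosen with earlier results of these data known. Intervals between libraries rest on 2 replicates, with 3 residual degrees of freedom.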

Additional observations from a re-analysis of the deposited data

How the results depend on the processing

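The rule found 725 peaks with a GC offset, 784 at a ratio of 1.2, 208 at 1.5 and 300 at a mean of at least 50 reads. With 1 library left out it found 490 to 2619, the most without 48 h R2. The count filter, the replicate block, TMM factors, DESeq2's size factors, a window of 1 kb, all protein-coding transcripts and a mean of at least 10 reads left each count of called peaks or chosen peaks within 1.5 times, save for the lost peaks. Of these, TMM factors left 1, DESeq2 0 (7 at an unadjusted p under 0.05), the GC offset gave 7 and the fit of only the 4 libraries compared gave 25. That fit gave 61 gained peaks at 12 h. Leaving out 1 library gave 6 to 62 gained and 0 to 26 lost peaks at 12 h (by edgeR, 3 to 43 at an unadjusted p under 0.05), 117 to 399 peaks called at 48 h vs 0 h and 116 to 428 at 48 h vs 12 h. With a replicate block, 40 peaks gained and 5 lost at 12 h. Deviations of same-numbered libraries correlated at -0.04, -0.05 and 0.08, so that the numbers do not pair them, and the block is given as an alternative alone. The called 12 h changes of named peaks in the set, and their changes at 48 h vs 0 h, kept their sign under every alternative. Changes at 12 h that were not called were followed for Cplx2 and Gap43 alone, and that of Cplx2 ran from -0.054 (without 0 h R2) to 0.56 (without 0 h R1) with 1 library left out. TMM factors shifted the median of promoter peaks at 12 h from -0.39 to -0.33. Peaks of few reads limit what 2 libraries can show, and the cause of these changes was not tested.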

Other observations

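A further group of promoters highest at 48 h was noticed only after the values were seen. Among them were promoters of genes that interferons induce, such as Mx2, Ifit1 and Gbp2. A list of 67 interferon-inducible genes was then written down, with these peaks known, so its count is no independent evidence of anything and was not tested. Of the 41 genes on it with a promoter peak of at least 20 reads on average, 18 had one in the set, in 18 peaks, against 3.75% of all genes. They included Aim2, Gbp2, Gbp9, Ifit1, Ifit2, Igtp and Irgm2 (which share a peak), Il15, Irf1 (with 2 peaks), Irgm1, Mx2, Oasl2, Parp10, Tapbp, Trim21, Ube2l6 and Zbp1. Gbp2, an interferon-induced GTPase, had scaled counts of 22.6 and 19.1 at 0 h, 25.7 and 23.9 at 12 h, then 57.7 and 61.1 at 48 h. Oasl2, an antiviral oligoadenylate synthetase-like protein, had 59.5 and 45.6, 54.7 and 59.8, and 163 and 129. Of the 18 peaks, that of Zbp1, a sensor of nucleic acids, had gained at 12 h (log2 fold change 1.18 ± 0.29, adjusted p = 0.00768), and none had lost H3K27ac. The other 23 genes had no peak in the set. Stat2, Irf9 and Eif2ak2 were among them, and Irf9 had 492 and 452 at 0 h, 415 and 419 at 12 h, then 403 and 432 at 48 h.

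Interferon-stimulated promoters are known for a site of 2 copies of GAAA with 2 other bases between them. It was in 5 of the 10 genes of this group with a RefSeq promoter of 300 bases that overlapped the peak (Gbp2, Trim21, Irgm1, Igtp and Ifit1). The share was 3.99% of all 27025 genes with a RefSeq promoter, 2.86% of the 10247 whose promoter overlapped a promoter peak with enough reads, and 5.72% of the 297 that overlapped one of the 460. As the list was made of interferon-inducible genes, a high share can come from the list itself, and its genes outside of the set were not counted. In the 501 bases around the centre, the site was in 8.91% of the 460 peaks against 4.68% of promoter peaks. Under 50% GC the shares of peaks were closer (9.15% and 7.76%), and from 50% to 60% GC they were 10.6% and 4.58%. Above that, 3 of 80 peaks in the set held the site (3.75%, against 1.95%). The RefSeq promoters (GRCm38.p6) of Ifit1 and Gbp2 are shown 5′ to 3′, with the site in capitals in either direction.
Ifit1 (chr19:34640639-34640938, + strand): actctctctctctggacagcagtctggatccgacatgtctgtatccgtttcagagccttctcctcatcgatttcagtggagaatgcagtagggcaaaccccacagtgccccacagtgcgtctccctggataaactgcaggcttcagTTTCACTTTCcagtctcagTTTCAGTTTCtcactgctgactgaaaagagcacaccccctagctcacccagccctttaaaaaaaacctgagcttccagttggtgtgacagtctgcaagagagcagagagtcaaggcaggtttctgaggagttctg
Gbp2 (chr3:142620413-142620712, + strand): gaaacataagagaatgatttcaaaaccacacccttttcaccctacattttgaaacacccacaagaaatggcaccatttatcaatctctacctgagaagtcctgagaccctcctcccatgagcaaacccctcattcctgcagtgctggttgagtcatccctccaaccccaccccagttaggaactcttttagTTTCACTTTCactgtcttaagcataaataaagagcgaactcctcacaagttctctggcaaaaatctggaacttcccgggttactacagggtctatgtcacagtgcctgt
Ifit1 has the site in 2 places and Gbp2 in 1, and all 3 read as the reverse complement.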
